A study of Mus musculus with 12 samples.

Results

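The genes described here encode 36 lysosomal enzymes and membrane proteins, named by symbol and found as 36 of 56748 genes in a table of liver RNA-seq counts. They comprise 7 membrane proteins, 10 proteases, 8 glycosidases or sulfatases, 4 proteins of lipid breakdown and 7 subunits or partners of the proton pump. Whole livers came from 12 mice, 4 per genotype, all fasted for 24 h. The age of these mice is not given in the sources used here. WT livers were labelled as controls floxed for Cpt1a, Cpt1b and Cpt2, whereas the study names floxed Atf3 and Cpt2 for the controls of its RT-qPCR, so the controls may come from another floxed line than the knockouts. Single knockouts (SKO) are labelled as lacking Cpt2, and double knockouts (DKO) as lacking Atf3 and Cpt2, in both cases through floxed alleles and Cre driven by the albumin promoter. Albumin-Cre acts mainly in hepatocytes, and deletion in each cell type was not measured here. Cpt2 is the carnitine palmitoyltransferase of the inner mitochondrial membrane that long-chain fatty acids need for oxidation, and Atf3 is a stress-induced transcription factor.

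Lysosomes are acidic organelles that break down material delivered by endocytosis and autophagy. A proton-pumping V-ATPase acidifies the lumen, soluble hydrolases degrade proteins, glycans and lipids there, and heavily glycosylated membrane proteins shield the limiting membrane and carry out transport and fusion. In the fasted liver, autophagy and the lysosomal acid lipase contribute to the turnover of proteins and stored lipid. Many lysosomal genes carry the letters CACGTG in their promoters, the core of the element read by the transcription factor Tfeb and its relatives.

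Promoter sequences from RefSeq (mouse build GRCm38.p6, 250 bases before to 50 bases after each start) were matched by symbol for 29 of the 36 genes, in 33 promoters. The 7 genes without an entry were Asah1, Atp6v0d2, Atp6v1b2, Atp6v1c1, Atp6v1h, Ctsb and Ctsh. The letters CACGTG, which read the same on both strands, were in 15 of the 33 promoters (45.5%), against 7.15% of all 32851 promoters in the table. The longer form TCACGTGA, which contains CACGTG and also reads the same on both strands, was in 7 of them (21.2%), against 0.974% of all. The cAMP response element TGACGTCA was in 1 promoter, that of Gusb, and in 1.79% of all. The AP-1 letters TGACTCA, searched on both strands and contained in none of the other motifs, were in 4 promoters, those of Glb1, Gpnmb, Neu1 and Psap, and in 5.20% of all. A match describes letters in this window and is not evidence of binding.

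Of the 13 genes with a promoter that rose in SKO against WT livers, 6 held CACGTG, as did 1 of the 3 that were lower and 8 of the 13 that did not pass the threshold. The letters were therefore not confined to the genes that rose. The stretches that hold CACGTG before the start of a gene that differed between SKO and WT livers are printed 5′ to 3′ on the strand of the gene, with CACGTG in capitals, to show the element and its neighbours. In Atp6v0d1 the letters span the start, so no stretch is shown. Lamp1 carried 4 copies within 76 bases (chr8:13159085-13159160, plus strand, ending at the base before the start), and Gaa carried 1 (chr11:119267808-119267843, plus strand). For genes in which the surrounding bases overlap an annotated exon, at most 30 bases are given, namely Ctsa (chr2:164833746-164833772, plus strand), Cln3 (chr7:126583340-126583369, minus strand), Ctsd (chr7:142387908-142387937, minus strand) and Ctsl (chr13:64370739-64370768, minus strand). For Cln3 and Ctsd this is the copy nearer to the start of 2.
Lamp1: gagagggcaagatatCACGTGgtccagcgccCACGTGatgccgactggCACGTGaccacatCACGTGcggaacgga
Gaa: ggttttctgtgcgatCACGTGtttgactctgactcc
Ctsa: caatgagcaaactgtCACGTGatgcag
Cln3: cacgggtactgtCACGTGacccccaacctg
Ctsd: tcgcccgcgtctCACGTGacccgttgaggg
Ctsl: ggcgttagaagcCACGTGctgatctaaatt

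Total counts were 14710304 to 20030055 per liver, and 3 counts, the limit that a count of 0 allows, corresponded to 0.145 to 0.196 CPM (counts scaled to a common library size with TMM factors). Cpt2 was 199 to 252 CPM in WT, 108 to 157 CPM in SKO and 101 to 127 CPM in DKO livers. Atf3 was 1.11 to 2.16 CPM in WT, 14.5 to 53.4 CPM in SKO, 7.92 to 13.6 CPM in DKO livers 1 to 3 and 0.270 CPM in DKO liver 4. In CPM, Atf3 of DKO livers 1 to 3 thus lay above WT and below SKO livers, the nearest pair being 13.6 and 14.5 CPM, and a loss of Atf3 was not seen in them at the level of whole-gene counts. These counts also hold reads from any part of the transcript outside the deleted one, and do not check the deletion itself. By RT-qPCR, the study reports that double knockouts of both sexes lacked the rise of Atf3 mRNA that came with Cpt2 loss. SKO liver 3 and DKO liver 4 held 18063 and 20855 counts of Xist with 2 and 0 counts of 4 Y-linked genes, whereas the other 10 livers held at most 19 Xist counts and 2741 to 4294 Y-linked counts. The study describes the mice of its RNA-seq as male, and the labels give no sex. Nothing in the labels says how replicates were housed or collected, so p-values measure the spread between these livers.

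DKO liver 4 stood apart from the other DKO livers in the lysosomal genes. It lay outside the range of DKO livers 1 to 3 for 29 of the 36 genes, above it for 13 and below it for 16. A liver can lie outside the range of 3 others by chance for many genes, and the share over all genes was not computed. The departure was not confined to these genes, as Alb was 75234 CPM in DKO liver 4 and 24988 to 28504 CPM in DKO livers 1 to 3. On a scale set per gene so that the WT mean is 0 and the SKO mean is 1, over the 22 genes that differed between SKO and WT, the median position was 0.698, 1.02 and 0.810 in DKO livers 1 to 3 and 0.126 in DKO liver 4. Of these 22 genes, DKO livers 1 to 3 were nearer to the SKO mean for 19, 21 and 17, and DKO liver 4 for 5. Results on DKO livers are therefore given with and without this liver. The choice was made on values of these same genes, so p-values without this liver depend on that choice and can be too small. The heat map shows each gene in each liver.

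**Figure D1:**
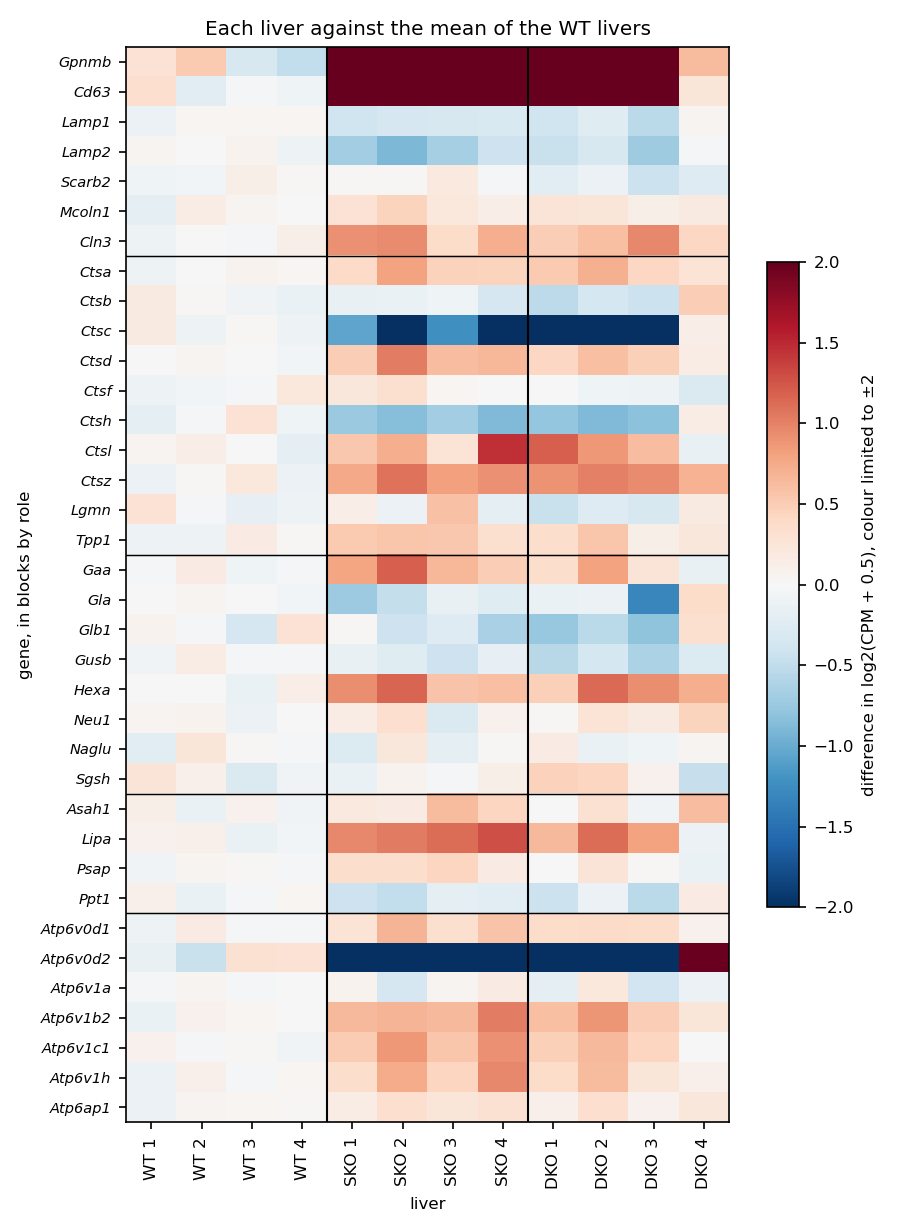
Difference of each liver (columns) from the mean of the WT livers, in log2(CPM + 0.5), for the 36 genes (rows, in blocks for membrane proteins, proteases, glycosidases and sulfatases, lipid breakdown and proton pump), with the colour limited to ±2. SKO livers and DKO livers 1 to 3 share the strong red of Gpnmb and Cd63 and the blue of Ctsc and Atp6v0d2, while DKO liver 4 is pale red for Gpnmb and Cd63, close to white for Ctsc and red for Atp6v0d2.

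Lysosomal genes differed in both directions between SKO and WT livers. In SKO against WT livers, all 36 genes were tested, and 17 were higher and 5 lower at an adjusted p under 0.05 (quasi-likelihood test of edgeR, adjusted by Benjamini-Hochberg over 14261 genes, and likewise in all comparisons here), where 16.7% of all tested genes were higher and 15.4% lower. The median log2 fold change of the 36 genes was 0.28, against 0.031 over all tested genes. Scaled by library totals without TMM factors, which moved the median of all genes to 0.20, 20 genes were higher and 4 lower, and Lamp1 lost its call. Rises were modest, below 2.2-fold for all but Gpnmb and Cd63. The 36 genes took 0.479 to 0.539% of all counts in WT, 0.667 to 0.791% in SKO, 0.664 to 0.696% in DKO livers 1 to 3 and 0.557% in DKO liver 4. In a whole organ, a change in RNA per cell and a change in the share of a cell type cannot be told apart.

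**Figure D2:**
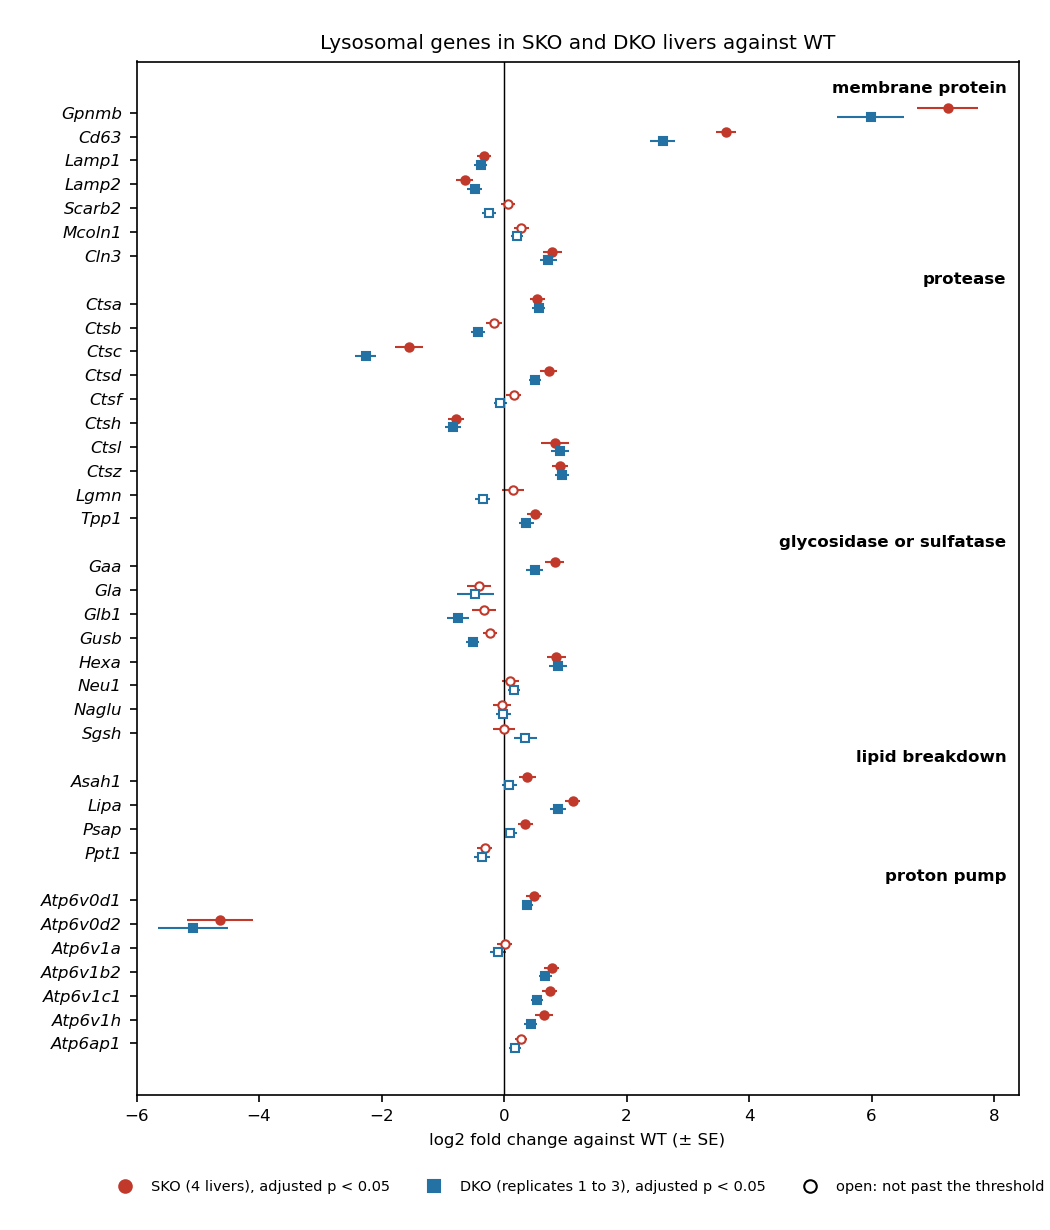
Log2 fold change against WT livers (x axis, with SE) of the 36 genes in blocks by role, for 4 SKO livers (red circles) and DKO livers 1 to 3 (blue squares), both against the same 4 WT livers. Filled symbols are past an adjusted p of 0.05 and open ones are not. Gpnmb (7.24 and 5.99) and Atp6v0d2 (−4.64 and −5.07) lie far from the other genes.

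Membrane proteins held both the largest rises and a pair of falls, with 3 of 7 higher and 2 lower in SKO livers. Gpnmb, a transmembrane glycoprotein of melanosomes and of the lysosomes of lipid-laden cells, was close to absent from WT livers, with 7, 8, 1 and 0 counts (0.364, 0.509, 0.0652 and 0 CPM). It was 54.1, 36.9, 26.3 and 27.5 CPM in the 4 SKO livers, and 12.5, 9.71, 23.3 and 0.594 CPM in DKO livers 1 to 4. Every SKO liver exceeded every WT and DKO liver, and DKO liver 4, with 11 counts, was above the highest WT liver, at 2.54 times the pooled WT level (exact 95% counting interval 1.07 to 5.82). That interval leaves out the spread between WT livers, of which the highest held 8 counts. Pooled over livers, the SKO level was 151 times that of WT, with an exact 95% interval of 93.1 to 265 that covers counting error only. The log2 fold change was 7.24 (SE 0.50, adjusted p = 2.58e-06, edgeR).

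Cd63, a tetraspanin of late endosomes, lysosomes and exosomes, followed the same order. Its level was 3.18 to 4.84 CPM in the WT livers and 41.3, 47.6, 43.7 and 53.1 CPM in the SKO livers. In DKO livers 1 to 4 it was 18.3, 21.0, 29.2 and 4.54 CPM. SKO livers did not overlap with either other genotype, and DKO liver 4 was within the WT range. Cd63 was 12.3-fold higher in SKO than in WT livers (log2 fold change 3.62, SE 0.17, adjusted p = 2.88e-07, edgeR). Cln3, the membrane protein mutated in juvenile neuronal ceroid lipofuscinosis, rose 1.73-fold, from 13.1 to 15.2 CPM in WT to 18.2 to 27.5 CPM in SKO livers (adjusted p = 0.0023, edgeR).

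The most abundant membrane proteins moved the other way. Lamp2, a major glycoprotein of the limiting membrane that is also needed for autophagosome fusion and chaperone-mediated autophagy, was 751, 719, 765 and 674 CPM in WT and 450, 391, 460 and 548 CPM in SKO livers. It fell in SKO livers, without overlap between the groups (log2 fold change −0.64, SE 0.14, adjusted p = 0.0038, edgeR). Its relative Lamp1 was 509 to 571 CPM in WT and 418 to 447 CPM in SKO livers (−0.33, SE 0.11, adjusted p = 0.041). The call on Lamp1 was lost on leaving out any 1 of 6 of the 8 livers (all but WT 1 and SKO 2). Scarb2, the receptor that carries glucocerebrosidase to lysosomes, and the calcium channel Mcoln1 did not pass the threshold (log2 fold changes 0.064 and 0.29, adjusted p = 0.716 and 0.0875).

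**Figure D3:**
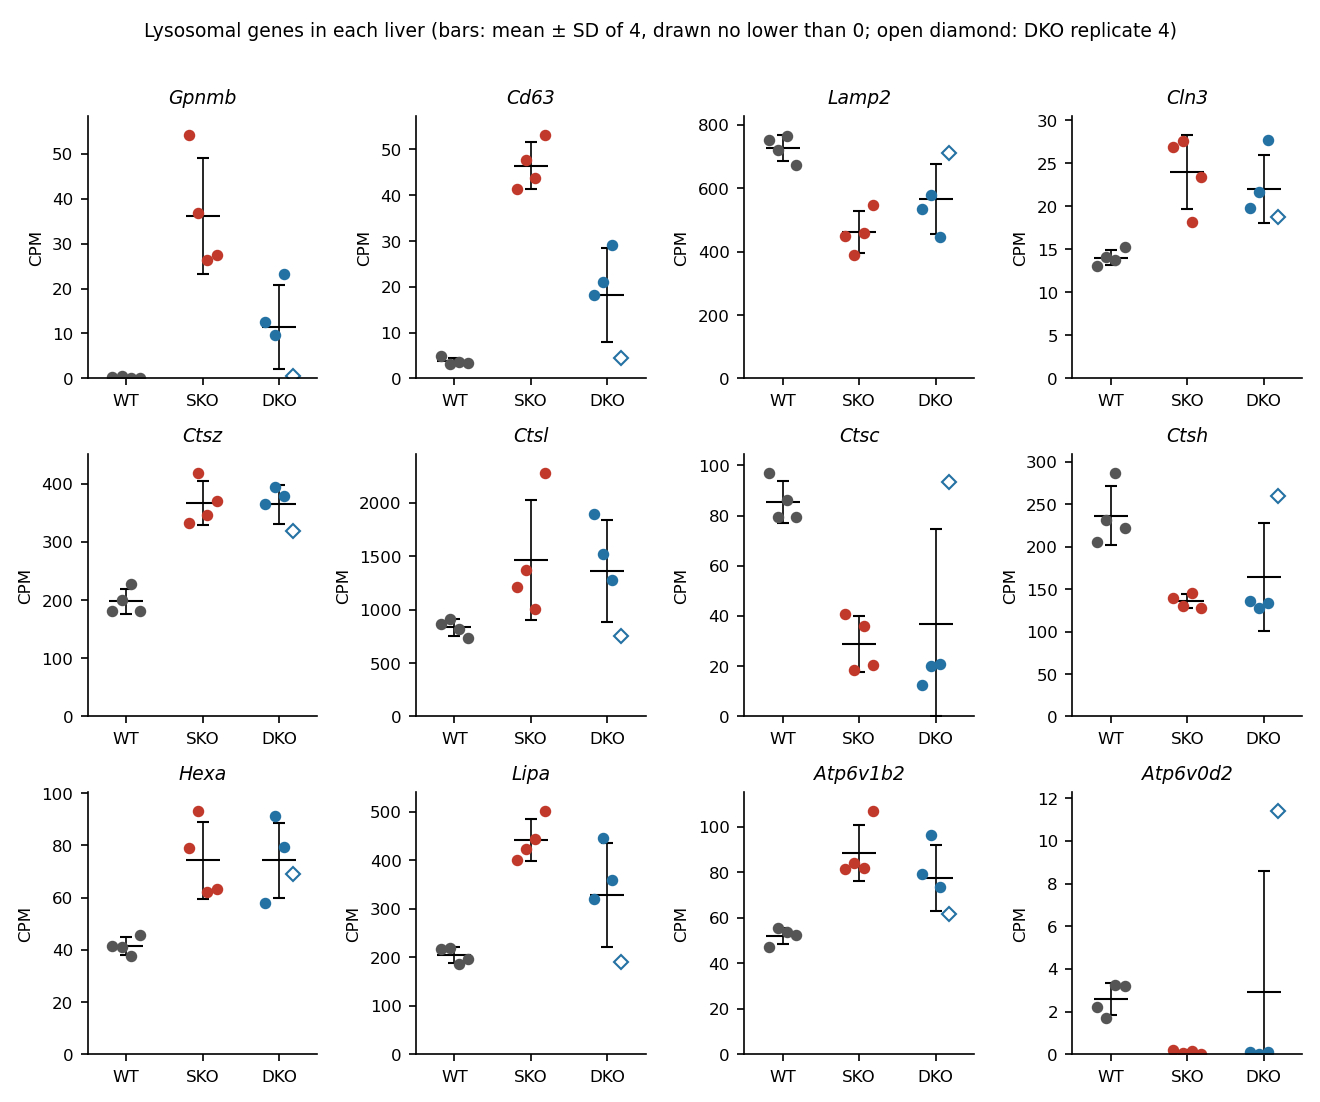
Level (CPM, y axis) of 12 lysosomal genes in each WT, SKO and DKO liver, with the mean and SD of the 4 livers of a genotype as bars, drawn no lower than 0, and DKO liver 4 as an open diamond. The diamond lies in the range of the WT livers for Cd63, Lamp2, Ctsl, Ctsc, Ctsh and Lipa, just above it for Gpnmb (0.594 CPM), above it for Ctsz and Hexa, and at 11.4 CPM for Atp6v0d2.

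Proteases divided into 5 that were higher in SKO livers, 2 that were lower and 3 that did not pass the threshold. Those that rose were the aspartic protease Ctsd, the cysteine proteases Ctsl and Ctsz, the carboxypeptidase Ctsa, which also protects beta-galactosidase and neuraminidase, and the tripeptidyl peptidase Tpp1. Ctsz was 181, 200, 227 and 182 CPM in WT, 333, 418, 346 and 371 CPM in SKO, and 366, 395, 379 and 318 CPM in DKO livers. All SKO and DKO livers, DKO liver 4 included, were above all WT livers, and Ctsz was 1.88-fold higher in SKO than in WT livers (adjusted p = 0.000309, edgeR). Ctsl was 733 to 912 CPM in WT and 1207, 1370, 1004 and 2278 CPM in SKO livers, a log2 difference of 0.83 (SE 0.23, adjusted p = 0.016), which lost its call without WT liver 4 (adjusted p = 0.0547). Ctsd rose 1.66-fold (adjusted p = 0.0017), Ctsa 1.46-fold (adjusted p = 0.0065) and Tpp1 1.41-fold (adjusted p = 0.0068).

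Ctsc, the dipeptidyl peptidase that activates the serine proteases of immune cells, fell most among the proteases. It was 96.9, 79.3, 86.3 and 79.3 CPM in WT and 40.7, 18.5, 35.9 and 20.5 CPM in SKO livers, a log2 difference of −1.55 (SE 0.24, adjusted p = 0.000464, edgeR). In DKO livers 1 to 4 it was 12.6, 20.2, 20.8 and 93.4 CPM, so that DKO liver 4 lay in the WT range. The aminopeptidase Ctsh fell in SKO livers, from 206 to 287 CPM in WT to 127 to 145 CPM (−0.79, SE 0.13, adjusted p = 0.000794). Ctsh was 136, 128 and 133 CPM in DKO livers 1 to 3 and 260 CPM in DKO liver 4. The proteases Ctsb, Ctsf and Lgmn did not pass the threshold, with log2 fold changes of −0.16, 0.16 and 0.14.

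Among 8 glycosidases and sulfatases, only Gaa and Hexa passed the threshold in SKO livers, and both were higher. Gaa, the acid alpha-glucosidase that degrades lysosomal glycogen, was 133, 153, 129 and 134 CPM in WT and 237, 315, 217 and 194 CPM in SKO livers, 1.77-fold higher (adjusted p = 0.0020, edgeR). Hexa, the alpha subunit of beta-hexosaminidase, was 37.6 to 45.6 CPM in WT and 62.0 to 93.1 CPM in SKO livers, 1.81-fold higher (adjusted p = 0.0012). The groups did not overlap for either gene. Gla, Glb1, Gusb, Neu1, Naglu and Sgsh had log2 fold changes between −0.41 and 0.10, and the median of the 8 genes was −0.014, near that of all tested genes.

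Lipid breakdown was led by Lipa, the acid lipase that hydrolyses cholesteryl esters and triglycerides in lysosomes. Its level was 217, 220, 186 and 198 CPM in WT livers and 401, 423, 445 and 502 CPM in SKO livers. The 2.18-fold rise (log2 1.12, SE 0.12, adjusted p = 5.57e-05, edgeR) was the largest among the soluble enzymes of the 36 genes. Acid ceramidase Asah1 (0.38, SE 0.13, adjusted p = 0.0473) and Psap, the precursor of the sphingolipid activators called saposins (0.35, SE 0.12, adjusted p = 0.0473), were just past the threshold. Without a single liver the call was lost for Asah1 in 6 of 8 cases (any WT liver, SKO 3 or SKO 4) and for Psap in 7 of 8 (any liver but SKO 4). The palmitoyl thioesterase Ppt1 did not pass the threshold (−0.32, SE 0.13, adjusted p = 0.0757).

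The proton pump showed 4 genes higher and 1 lower of 7 in SKO livers. Atp6v1b2, Atp6v1c1 and Atp6v1h, subunits of the cytosolic V1 sector, rose 1.71-fold, 1.68-fold and 1.57-fold (adjusted p = 0.000592, 0.000986 and 0.0048, edgeR). Atp6v1b2, for example, was 47.2 to 55.4 CPM in WT and 81.5, 84.0, 81.7 and 107 CPM in SKO livers. Atp6v0d1, the widely expressed d subunit of the membrane sector, was 63.3 to 76.4 CPM in WT and 82.5 to 109 CPM in SKO livers (1.40-fold, adjusted p = 0.013), and lost its call without WT liver 1 or WT liver 4 (highest adjusted p = 0.0539). The catalytic subunit Atp6v1a was level (0.015, SE 0.12, adjusted p = 0.942) and the accessory protein Atp6ap1 missed the threshold (0.28, SE 0.10, adjusted p = 0.0620).

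Atp6v0d2, the alternative d subunit known from osteoclasts and macrophages, was the gene that fell most. It had 43, 27, 50 and 58 counts in WT livers and 3, 1, 3 and 0 counts in SKO livers, all of the latter at or under the limit that a count of 0 allows. Pooled, WT livers were 27.0 times SKO livers, with a counting interval of 12.8 to 68.2. DKO livers 1 to 3 held 2, 0 and 2 counts, and WT livers were 36.9 times their level (14.1 to 137). DKO liver 4 held 211 counts, 11.4 CPM against 1.72 to 3.26 CPM in WT livers. The 2 d subunits thus differed in direction in SKO livers, and the d1 form was the more abundant in every liver.

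Levels across genes can be compared per length, as TPM (counts per base of gene length, scaled to one total). Psap (580 TPM), Lamp1 (479 TPM), Ctsz (317 TPM), Ctsl (297 TPM) and Ctsd (194 TPM) led in WT livers, and Cd63, Atp6v0d2 and Gpnmb were last at 2.40, 2.21 and 0.0845 TPM. In SKO livers Cd63 moved from rank 34 to rank 20 and Gpnmb from rank 36 to rank 29 of the 36 genes, while Ctsc moved from rank 18 to rank 31. The order of Psap against Lamp1 in WT livers exceeded their SDs over livers (14.1 and 9.24 TPM), whereas Ctsz and Ctsl, with SDs of 28.6 and 32.2 TPM, were not separated.

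With all 4 DKO livers, 7 of the 36 genes were higher and 1 lower in DKO than in WT livers, where 6.06% of 14448 tested genes were higher and 4.39% lower (edgeR). Gpnmb, Cd63, Cln3, Ctsa, Ctsz, Hexa and Atp6v1b2 were higher and Gusb, beta-glucuronidase, was lower. Ctsz was the firmest of them, with a log2 fold change of 0.90 (SE 0.13, adjusted p = 0.0089), and kept its call in every alternative, at adjusted p-values up to 0.0417. Each of the other 7 lost its call in at least 2 of the fits that left out a single liver. Scaled by library totals without TMM factors, which moved the median of all genes from 0.030 to 0.20, 17 of the 36 genes were higher and 0 lower. The median log2 fold change of the 36 genes was 0.20 with TMM factors, against 0.030 over all tested genes.

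Without DKO liver 4, 15 of the 36 genes were higher and 8 lower in DKO than in WT livers, where 18.4% of 14634 tested genes were higher and 17.5% lower. Atf3 in these DKO livers was 7.92 to 13.6 CPM, above the 1.11 to 2.16 CPM of WT livers. The SKO and DKO comparisons share the 4 WT livers, so their values are set side by side and no likeness is read from them. Gpnmb had a log2 fold change of 5.99 (SE 0.55, adjusted p = 1.69e-05) in DKO livers 1 to 3, beside 7.24 in SKO livers. Cd63 had 2.59 (SE 0.21, adjusted p = 6.13e-06) beside 3.62, and Lipa 0.88 (SE 0.13, adjusted p = 0.000372) beside 1.12. Ctsl had 0.92 (SE 0.15, adjusted p = 0.000658) beside 0.83, and Ctsz 0.95 (SE 0.11) beside 0.91.

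Among the genes that fell without DKO liver 4, Ctsc had −2.26 (SE 0.18, adjusted p = 5.35e-06) beside −1.55 in SKO livers, and Ctsh −0.83 (SE 0.13, adjusted p = 0.000499) beside −0.79. Lamp1 and Lamp2 had −0.38 and −0.48 (adjusted p = 0.020 and 0.011) beside −0.33 and −0.64. The cysteine protease Ctsb (−0.43, adjusted p = 0.015), the beta-galactosidase Glb1 (−0.75, adjusted p = 0.0092) and Gusb (−0.51, adjusted p = 0.0035) were past the threshold, beside −0.16, −0.32 and −0.23 in SKO livers, which were not. Ctsb was 309, 347 and 330 CPM in DKO livers 1 to 3 and 623 CPM in DKO liver 4, against 403 to 504 CPM in WT livers. Psap and Asah1 did not pass the threshold in DKO livers 1 to 3 (0.11 and 0.084, adjusted p = 0.486 and 0.636). All adjusted p-values for DKO livers 1 to 3 are from edgeR's quasi-likelihood test.

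The comparison of DKO with SKO livers addresses Atf3 deletion on top of Cpt2 deletion, in livers whose Atf3 counts themselves did not pass the threshold (log2 fold change −1.91, SE 0.73, adjusted p = 0.701, edgeR). None of the 35 genes tested passed the threshold in edgeR's test (0.0209% of all 14363 tested genes did), nor in DESeq2. Atp6v0d2 was too low to be tested. At an unadjusted p under 0.05, 2 genes were lower, Gpnmb and Cd63, where 2.38% of all tested genes were lower, and 0 were higher. Gpnmb was lower in all 4 DKO livers than in any SKO liver, with a log2 fold change of −1.65 (SE 0.68, unadjusted p = 0.035, adjusted p = 0.734). Cd63 was likewise lower in every DKO liver (−1.35, SE 0.41, unadjusted p = 0.0076, adjusted p = 0.546). The median of the 35 genes was −0.11, against 0.0086 over all tested genes, with 25 below and 10 above 0.

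Without DKO liver 4, the same comparison again placed 0 of 35 genes past the threshold (0.103% of 14589 tested genes passed). It leaves out the DKO liver with the lowest Atf3 (0.270 CPM). Atf3 in DKO livers 1 to 3 was 7.92 to 13.6 CPM, above the 1.11 to 2.16 CPM of WT livers. The differences of Gpnmb and Cd63 became smaller and their errors smaller still, at −1.26 (SE 0.32, unadjusted p = 0.0024, adjusted p = 0.284) and −1.03 (SE 0.18, unadjusted p = 0.000121, adjusted p = 0.0803, edgeR). Ctsc (−0.71, SE 0.30) and Lgmn, the asparaginyl endopeptidase (−0.50, SE 0.20), were also lower at unadjusted p-values of 0.035 and 0.028, where 3.45% of all tested genes were lower. With all 4 DKO livers, Ctsc had the opposite sign (0.36, SE 0.58, unadjusted p = 0.543) and Lgmn was at −0.33 (SE 0.21, unadjusted p = 0.150). Without both livers with Xist counts, neither was lower at an unadjusted p under 0.05 (Ctsc −0.58, SE 0.30, and Lgmn −0.31, SE 0.16). The 6 tested proton pump genes had differences between −0.22 and −0.090, and Ctsa, Ctsz and Hexa differed by 0.019, 0.043 and 0.025 (SE 0.16, 0.15 and 0.20). The absence of calls does not show that the genotypes were alike.

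Gpnmb and Cd63 are also expressed by macrophages, so markers of these cells are given beside them. None of the 10 macrophage markers (Adgre1, Clec4f, Vsig4, Cd5l, Timd4, Marco, Csf1r, C1qa, C1qb and C1qc) passed the threshold in SKO against WT livers in edgeR's test, where 16.7% of all tested genes were higher and 15.4% lower. Of these markers 0 were at an unadjusted p under 0.05, and their log2 fold changes were −0.16 to 0.37. Their summed level was 267 to 523 CPM in WT, 209 to 594 CPM in SKO, 140 to 237 CPM in DKO livers 1 to 3 and 558 CPM in DKO liver 4. Cd68, a macrophage-enriched lysosomal gene that is not on this list, was higher in SKO than in WT livers (log2 2.28, SE 0.28, adjusted p = 0.000107, edgeR). In DKO against WT livers all 10 markers had log2 fold changes below 0 (median −0.37), and Marco, a scavenger receptor, was past the threshold (−1.95, SE 0.45, adjusted p = 0.029, edgeR). Of all tested genes, 4.39% were lower in that comparison. In DKO against SKO livers all 10 markers were again below 0 (median −0.42), with 0 past the threshold and 1, Marco, at an unadjusted p under 0.05 (−2.31, unadjusted p = 0.031). Of all tested genes, 2.38% were lower at that unadjusted p. Without DKO liver 4, 9 of the 10 were lower than in WT livers (median −0.99), where 17.5% of all tested genes were lower. Against SKO livers 0 passed the threshold but 9 were lower at an unadjusted p under 0.05 (median −1.02), where 3.45% of all tested genes were lower. That fit still held SKO liver 3, which has Xist counts and the highest macrophage sum of all livers (594 CPM). Without both livers with Xist counts, 0 passed the threshold and 5 were lower at an unadjusted p under 0.05 (median −0.64), beside −1.38 for Gpnmb (SE 0.33, adjusted p = 0.218) and −1.06 for Cd63 (SE 0.20, adjusted p = 0.0754, edgeR). DKO liver 4 had a high macrophage sum and the lowest Gpnmb and Cd63 of the DKO livers. Among markers of lipid-associated macrophages, Trem2 was 0.261 to 0.936 CPM in WT and 0.446 to 1.54 CPM in SKO livers. Cd9, a tetraspanin of many cell types, rose (log2 1.21, adjusted p = 0.000283) and Spp1 fell (−1.44, adjusted p = 0.000658). Itgax (0.41) and Lpl (−0.57) did not pass the threshold. The summed list of 6 genes was 47.5 to 62.1 CPM in WT, 37.5 to 54.2 CPM in SKO, 37.0 to 56.4 CPM in DKO livers 1 to 3 and 61.1 CPM in DKO liver 4. Against WT, Cd9 alone passed with all 4 DKO livers (1.11). Without DKO liver 4, Cd9 was higher (1.22) and Spp1 (−1.19) and Lpl (−0.92) were lower than in WT livers. Against SKO livers without DKO liver 4, 0 of 5 tested passed, and Itgax alone was at an unadjusted p under 0.05 (−1.24, unadjusted p = 0.042, edgeR). The part of macrophages in the levels of Gpnmb and Cd63 was not tested.

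Markers of other cells are given for SKO against WT livers first, where 16.7% of all tested genes were higher and 15.4% lower. Of 7 stellate cell markers Dcn was higher in SKO livers (log2 0.61, adjusted p = 0.0063), and of 6 endothelial markers none passed, with 0 at an unadjusted p under 0.05. Of 4 tested cholangiocyte markers Sox9 (−1.87, adjusted p = 0.0011) and Spp1 were lower, and the summed level of all 5 listed cholangiocyte markers was 27.9 to 33.5 CPM in WT, 7.37 to 14.3 CPM in SKO, 9.61 to 18.9 CPM in DKO livers 1 to 3 and 31.6 CPM in DKO liver 4. Of 6 hepatocyte markers Alb (−0.89, adjusted p = 0.011) and Ttr (−0.89, adjusted p = 0.000313) were lower. Alb, which defines the tissue, was 51889 to 65487 CPM in WT, 22226 to 44342 CPM in SKO, 24988 to 28504 CPM in DKO livers 1 to 3 and 75234 CPM in DKO liver 4. In DKO against WT livers Sox9 alone of these 4 lists passed the threshold (−1.71, adjusted p = 0.020), where 6.06% of all tested genes were higher and 4.39% lower. Without DKO liver 4, Dcn was higher (0.43, adjusted p = 0.015), and Sox9 (−1.52), Spp1 (−1.19), Alb (−1.14), Ttr (−0.76) and Tat (−0.94, adjusted p = 0.0499) were lower, with 0 of 6 endothelial markers past the threshold or at an unadjusted p under 0.05 (edgeR). Of all tested genes in that fit, 18.4% were higher and 17.5% lower. In DKO against SKO livers 0 markers of these lists passed, and 0 were at an unadjusted p under 0.05, with or without DKO liver 4. The part of cell makeup in the lysosomal genes was not tested.

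Of 60 other lysosomal genes tested, 16 were higher and 6 lower in SKO than in WT livers, where 16.7% of all tested genes were higher and 15.4% lower, and their median log2 fold change was 0.015, against 0.031 over all tested genes. Ctse, the endosomal aspartic protease (3.52), and Cd68, a macrophage-enriched relative of the Lamp proteins (2.28), rose most, and Gm2a, the activator of ganglioside breakdown (−1.78), and the amino acid carrier Slc36a1 (−1.08) fell most. Cd68 was 5.68 to 11.1 CPM in WT, 24.1 to 54.1 CPM in SKO, and 21.3, 11.5, 25.3 and 9.61 CPM in DKO livers 1 to 4. Gm2a was 55.6 to 64.7 CPM in WT, 13.9 to 22.6 CPM in SKO, 17.2 to 21.0 CPM in DKO livers 1 to 3 and 82.9 CPM in DKO liver 4. Against WT, DKO livers had 2 of 61 tested genes higher and 3 lower, where 6.06% of all tested genes were higher and 4.39% lower. Without DKO liver 4 they had 12 of 60 higher and 16 lower, where 18.4% of all were higher and 17.5% lower. DKO against SKO livers had 0 of 61 past the threshold, with 0 higher and 4 lower at an unadjusted p under 0.05, or 0 and 7 without DKO liver 4 (edgeR). Of all tested genes, 2.38% were lower at that unadjusted p, or 3.45% without DKO liver 4.

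The other V-ATPase subunits that passed the threshold in SKO livers were higher, with 1 exception. In SKO livers 8 of 16 tested were higher and 1 lower, led by Atp6v1e1 (0.93) and Atp6v0b (0.82), with a median of 0.34, where 16.7% of all tested genes were higher and 15.4% lower. Tcirg1, an a subunit of the membrane sector known from osteoclasts, was the one that fell, from 51.9 to 60.3 CPM in WT to 24.9 to 34.8 CPM in SKO livers (−0.79), and was 55.1 CPM in DKO liver 4. DKO against WT livers had 4 of 16 higher and 0 lower (6.06% and 4.39% of all tested genes), or 8 and 2 without DKO liver 4 (18.4% and 17.5% of all). DKO against SKO livers had 0 of 15 past the threshold and 1 lower at an unadjusted p under 0.05, or 0 of 16 and 1 without DKO liver 4. Of all tested genes, 0.0209% passed and 2.38% were lower at that unadjusted p, or 0.103% and 3.45% without DKO liver 4. Of the 4 transcription factors of the Tfeb family, Tfe3 rose in SKO livers (log2 0.46, SE 0.13, adjusted p = 0.019), from 23.6 to 28.9 CPM to 28.8 to 39.6 CPM, with an overlap of 1 liver of each group. In DKO against WT livers Tfe3 was at 0.53 (SE 0.18, adjusted p = 0.084), or 0.69 (SE 0.11, adjusted p = 0.000646, edgeR) without DKO liver 4. Tfeb itself was 8.55 to 11.3 CPM in WT and 9.88 to 13.9 CPM in SKO livers (0.33, adjusted p = 0.161), and Mitf and Tfec did not pass the threshold.

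**Figure D4:**
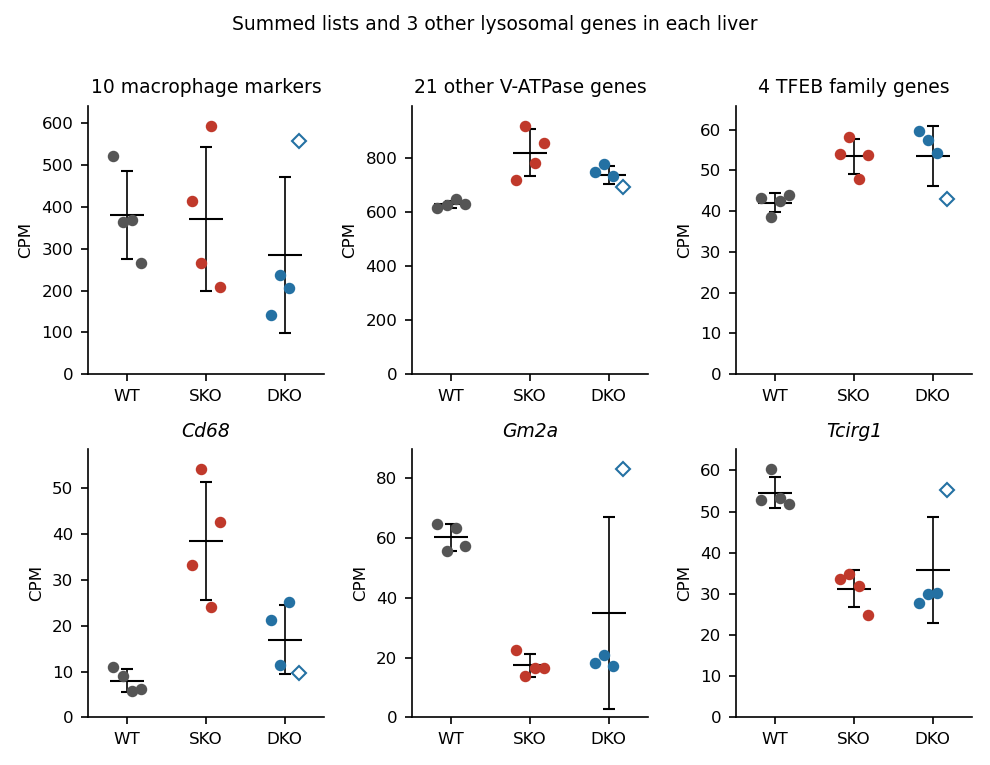
Summed CPM (y axis, upper row) of 10 macrophage markers, 21 other V-ATPase genes and 4 Tfeb family genes, and CPM of Cd68, Gm2a and Tcirg1 (lower row), in each WT, SKO and DKO liver, with the mean and SD of 4 livers as bars and DKO liver 4 as an open diamond. Macrophage markers overlap between WT and SKO livers, and DKO livers 1 to 3 lie below all WT livers (140 to 237 against 267 to 523 CPM) but overlap with SKO livers, while Gm2a and Tcirg1 in DKO liver 4 lie at or above the WT levels.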

How the data were processed

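RNA-seq was done on 12 livers by the authors, who deposited raw counts per Ensembl gene for 56748 genes, with no normalization. The submitters' processing notes name HISAT2, GRCm38 and mm10, and the counting program and the strandedness of counting are not given in the sources used here. Starts of 35 of the 36 genes in the count table differ from those of a GENCODE annotation of GRCm38, so no gene position is printed from it. Deposited FPKM values were not used, and neither were tables of the authors' scaled counts, group means, fold changes and p-values. Genotypes were taken from the labels.

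Genotypes were compared pairwise in edgeR 4.0.16 (limma 3.58.1, R 4.3.3), using filterByExpr, TMM factors within the 8 livers compared and the two-sided quasi-likelihood test. Adjusted p-values (Benjamini-Hochberg) below 0.05 over all tested genes were called. SE is the log2 fold change divided by the root of F. CPM was scaled by TMM factors of all 12 livers, and TPM used the deposited gene lengths. The 36 genes and the lists were chosen with earlier results of these data known. In each role group, genes past the threshold against WT were named, then those at an unadjusted p under 0.05 in DKO against SKO, and from each other list the 2 tested genes with the largest rise and the 2 with the largest fall past the threshold. Genes named below the threshold, the markers and Tfeb were chosen after their values were seen. Same-numbered livers correlated at −0.34 to 0.088 after group means were removed, so numbers were not treated as pairs. Alternatives were DESeq2 1.42.0, RLE factors, no filter, 1 fit over 12 livers, a replicate block, leaving out each liver or both livers with Xist counts, and, chosen after seeing the data, library totals without TMM.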

Additional observations from a re-analysis of the deposited data

Results flagged for a closer look

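In 13 of 108 sets of 4 livers (36 genes in 3 genotypes), 1 liver was far from the other 3 by Dixon's 95% limit, a limit that chance passes in about 1 of 20 sets, and 6 of the 13 were DKO liver 4. In that liver Ctsb (623 CPM), Ctsc (93.4 CPM), Ctsh (260 CPM), Glb1 (13.3 CPM) and Atp6v0d2 (11.4 CPM) were far above, and Atp6v0d1 (72.2 CPM) far below, DKO livers 1 to 3. In WT livers, Lamp1 in liver 1 (509 CPM) and Atp6ap1 in liver 1 (57.0 CPM) were low, and Ctsf in liver 4 (44.7 CPM) and Gusb in liver 2 (40.9 CPM) were high. In SKO livers, Ctsa in liver 2 (262 CPM) and Atp6v1b2 in liver 4 (107 CPM) were high, and Tpp1 in liver 4 (119 CPM) was low.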

How the results depend on the processing

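The number of the 36 genes past the threshold in SKO against WT livers, 22 as reported, stayed within 17 to 24 under all alternatives, and in DKO against SKO livers it was 0 in all of them. In DKO against WT livers, 8 genes passed as reported, 4 with a replicate block, 17 with library totals without TMM, 23 without both livers with Xist counts, and 1 to 23 on leaving out single livers (1 without WT 1 or WT 2, 2 without WT 4, DKO 1 or DKO 3, 3 without WT 3 or DKO 2, and 23 without DKO 4). The number of all tested genes called moved with these counts, from 1510 as reported to 691 with the block, 2257 with library totals, 5253 without DKO 4 or without both livers with Xist counts, and 244 to 719 without any other single liver. Library totals moved the median log2 fold change of the 36 genes to 0.46 in SKO and 0.38 in DKO livers against WT, with the median of all genes moving to 0.20 in both. No called gene reversed. Without DKO liver 4, the sign turned for 2 of 36 genes in DKO against WT livers, Naglu and Atp6v0d2, of which Atp6v0d2 went from 0.17 to −5.07 and was then called lower, and for 10 of 35 in DKO against SKO livers, with 0 called, among them Ctsc, from 0.36 to −0.71. Of 22 called genes in SKO against WT livers, 17 kept their call in every alternative, and of 8 in DKO against WT livers 1 did. With the replicate block, 19 genes passed in SKO against WT livers. Over all genes, DESeq2 called 2508 in DKO against WT and 91 in DKO against SKO livers, where edgeR called 1510 and 3. Depth limits Gpnmb and Atp6v0d2, whose low groups rest on few counts.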
